A study of Saccharomyces cerevisiae with 2 samples.

Results

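The genes described here are the ribosome assembly factors of budding yeast, Saccharomyces cerevisiae, taken by name. A gene was included when its annotated symbol consisted of UTP, NOP, NOC, RRP, DBP, NSA, NUG, RLP or RRB followed by a number, a rule that uses the name and no measured value. It took 71 of 5449 S. cerevisiae genes on the array, and each of the 71 was read by 1 probe set whose name marks no match to other transcripts. All 71 gave a signal above background in both arrays.

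Transcript levels had been measured in 1 culture given alpha factor and in 1 mock-treated culture, with 1 Affymetrix Yeast 2.0 array each. Alpha factor is the mating pheromone of alpha cells, and a cells answer it by arresting before DNA replication and extending a mating projection. Treatment was with 50 ng/ml for 3 hours in rich medium. The description given for the mock sample repeats that of the alpha-factor sample, so no source used here describes the growth of the mock culture itself. The arrays were told apart by their source names and titles. One MATa strain of S288c background was used for both, with ura3Δ0, leu2Δ0, his3Δ1, met15Δ0 and bar1Δ::KanMX, so neither culture could degrade alpha factor with the Bar1 protease. Values are log2 expression values, and a difference is the alpha-factor value minus the mock value. With 1 array per condition no difference has a replicate error or a p-value, and precision is limited by having so few arrays. Fewer cells of a kind and less RNA per cell cannot be told apart in such cultures, and a change in total mRNA would not show if the arrays had been scaled to each other.

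Ribosomes are built in the nucleolus around ribosomal RNA, which RNA polymerase I transcribes as one long precursor. The small subunit processome, made of UTP proteins, other factors and the U3 small nucleolar RNA, assembles on the part of the precursor that becomes the small subunit. Other factors, among them NOC, NSA and NUG proteins, act on the precursor of the large subunit, and helicases of the DEAD-box family (DBP), modification particles and the exosome nuclease work along the way. In yeast the genes of these factors are known to be transcribed together and to follow the growth rate of the cell.

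Markers of mating and of cell type were read first. The mating genes FUS1, PRM1, FIG1 and AGA1 lay between 13.85 and 14.64 with alpha factor, against 8.41 to 12.46 in mock. The alpha-factor receptor gene STE2 was at 14.25 with alpha factor and 13.72 in mock, and the deleted BAR1 was at 3.63 with alpha factor and 3.83 in mock, below the background levels of 5.49 in the alpha-factor array and 5.50 in the mock array. The 4 listed genes of alpha cells ranged from 5.93 to 9.91 with alpha factor and from 5.85 to 9.53 in mock. Of these, the a-factor receptor gene STE3 was at 9.49 with alpha factor and 7.74 in mock, and the minor pheromone gene MF(ALPHA)2 at 8.64 with alpha factor and 6.36 in mock. SAG1, the alpha-agglutinin gene, was at 9.91 with alpha factor and 9.53 in mock, and MF(ALPHA)1, the major pheromone gene, at 5.93 with alpha factor and 5.85 in mock. The summed signal of the 4 was 11.06 (log2) with alpha factor and 10.09 in mock. Control probe sets for 18S ribosomal RNA, the RNA of the small subunit, leaving out those named for S. pombe, were lower with alpha factor in 8 of 8 cases, by a median log2 difference of -0.74. Median levels of these 18S probe sets were 7.48 with alpha factor and 7.99 in mock. Those for 25S ribosomal RNA were lower in 6 of 8, with a median of -0.85 and a range from -5.20 to 0.01. Probe sets for the same RNA thus disagreed. Those named for S. pombe ribosomal RNA were also lower, in 7 of 7, with a median of -0.28. These medians were not read as amounts of ribosomal RNA. The part of these marker and control signals in the differences below was not tested.

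Nearly all assembly factor genes were lower with alpha factor, each by a modest amount. Of the 71, 70 had a difference below 0, against 53.9% of all 5337 genes above background. Their median level was 11.97 with alpha factor and 12.39 in mock. The median difference was -0.45, so that a typical member stood at 73.1% of its mock level, while the median over all genes was -0.03. The middle 50% of the members lay between -0.58 and -0.34, and that of all genes between -0.32 and 0.26. The spread over members, an SD of 0.22, was smaller than the 0.71 over all genes, and 49 of the 71 lay between -0.6 and -0.25.

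**Figure D1:**
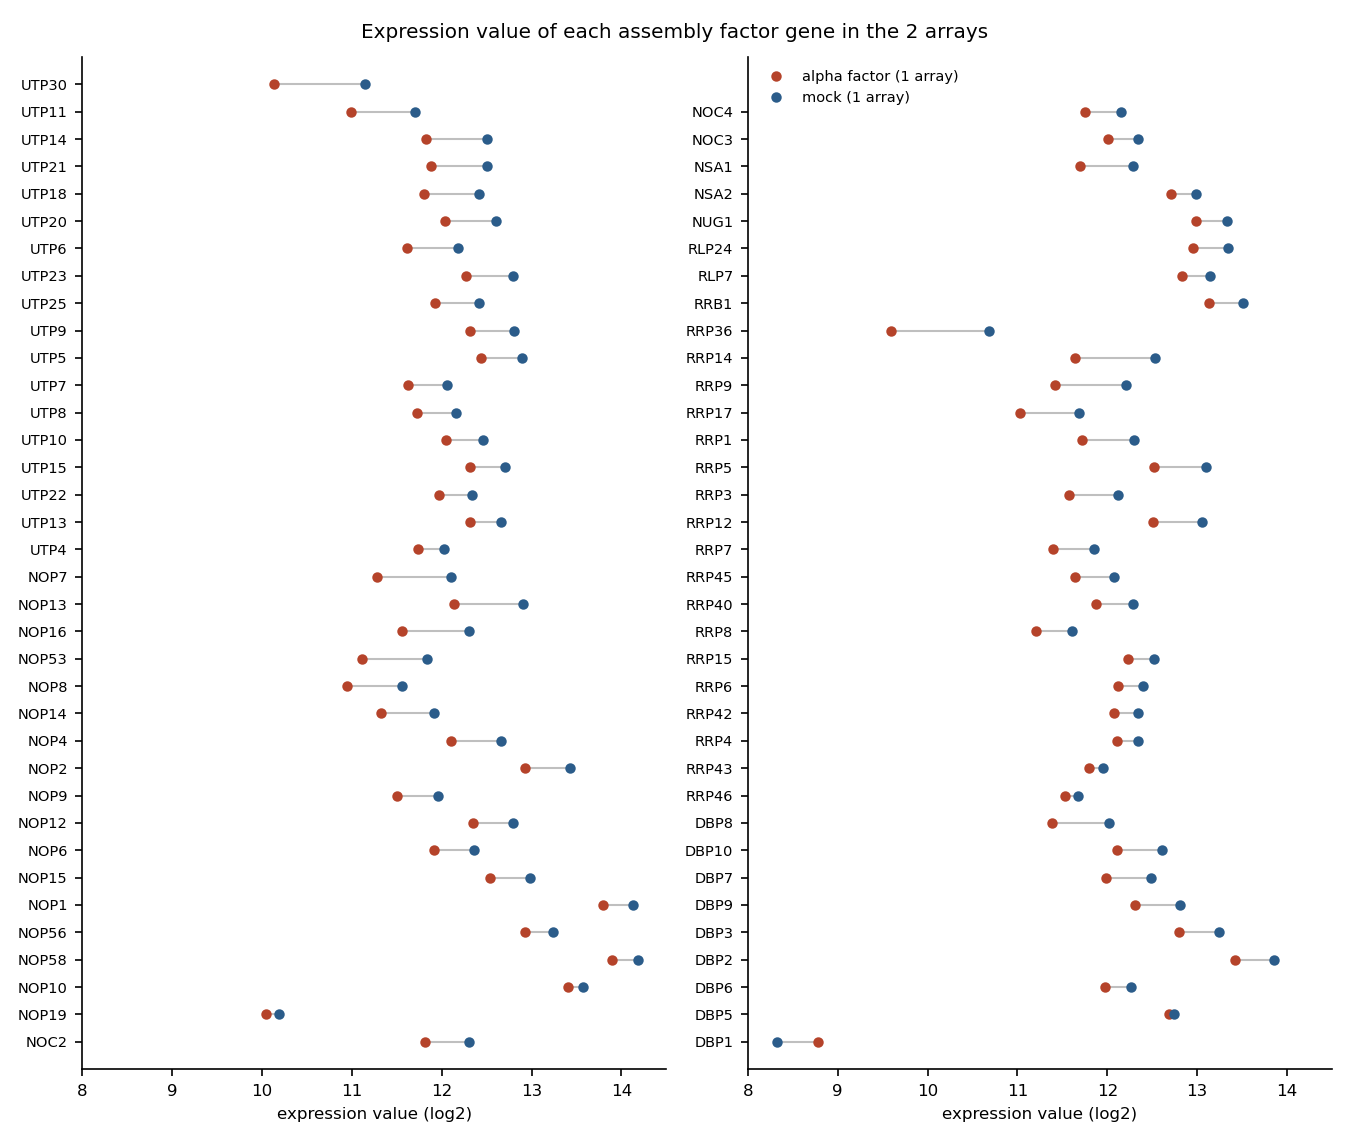
Expression value (log2, horizontal axis) of each of the 71 assembly factor genes with alpha factor (red) and in mock (blue), 1 array each, ordered by name family and then by difference. The red point lies left of the blue one for 70 genes, and DBP1 is the exception.

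Genes lower by 2-fold or more were few among the members and few among all genes, at near the same share. By a rule of 2-fold or more, 2 of the 71 were lower, beside 3.78% of all genes, and 0 were higher, beside 5.51% of all genes. Among genes of like mock level, from 11.35 to 13.54 (the middle 90% of the members), 3.35% were 2-fold lower and 2.95% were 2-fold higher. By a rule of 1.5-fold or more, 17 were lower (23.9%), where 10.7% of all genes were. After removal of a loess curve of the difference on the level, 10 were (14.1%), where 9.22% of all genes were. On the deposited scale 0 were 1.5-fold higher, where 12.1% of all genes were. In the band of like mock level the shares on that scale were 11.8% lower and 6.56% higher. In 49 of the 71 the difference was below -0.38, the 2.5th percentile of the differences of 1746 probe sets for the fission yeast S. pombe, which were taken to read no transcript here. Of all genes, 20.2% lay below it. That percentile describes noise near background and leaves out differences between cultures.

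The 2 genes past 2-fold both encode small subunit factors. RRP36, needed for early cleavages of the precursor, was at 9.60 with alpha factor and 10.68 in mock, a 2.12-fold lower level. UTP30, a protein of the processome related in fold to a ribosomal protein, was at 10.14 with alpha factor and 11.14 in mock, or 2.00-fold lower. UTP30 sits on the boundary of the rule and fell short of it after centring on the S. cerevisiae median (-0.97), quantile normalization (-0.99), removal of a loess curve (-0.94) or a pseudocount of 32 (-0.98). The next member, RRP14, lay outside the rule at 11.64 with alpha factor and 12.53 in mock, a difference of -0.89.

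Below these stood factors of both subunits. RRP14 itself takes part in making both. NOP7, which works with Erb1 and Ytm1 on the large subunit precursor, was at 11.28 with alpha factor and 12.11 in mock. RRP9, the protein that marks the U3 particle, was at 11.42 with alpha factor and 12.20 in mock. NOP13, a nucleolar RNA-binding protein, was at 12.14 with alpha factor and 12.90 in mock, and the large subunit factor NOP16 was at 11.55 with alpha factor and 12.30 in mock. NOP53, which brings the exosome to the large subunit precursor, was at 11.12 with alpha factor and 11.83 in mock. Differences of these 5 genes ran from -0.83 to -0.72.

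Transcripts of the UTP proteins were lower in 18 of 18 cases, with a median of -0.49. UtpA, the complex that first binds the precursor, was an even group: UTP9, UTP5, UTP8, UTP10, UTP15 and UTP4 had differences from -0.49 (UTP9) to -0.30 (UTP4), with a median of -0.42. UTP9 was at 12.31 with alpha factor and 12.80 in mock, and UTP4 was at 11.73 with alpha factor and 12.03 in mock. Their partner NAN1, once called UTP17 and outside the name rule, had -0.32. None of the 6 reached 1.5-fold, where 10.7% of all genes were lower by that much.

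UtpB, a complex that contacts both the U3 RNA and the precursor, had a median of -0.59 over 4 members. UTP21 was at 11.88 with alpha factor and 12.50 in mock, UTP18 was at 11.80 with alpha factor and 12.42 in mock, and UTP6 was at 11.62 with alpha factor and 12.18 in mock. UTP13 had the smallest difference of the complex, at 12.32 with alpha factor and 12.66 in mock. The other subunits, PWP2 and DIP2, had -0.55 and -0.51, so that 6 of 6 were lower. In UtpC, RRP7 was at 11.40 with alpha factor and 11.85 in mock, and UTP22 at 11.97 with alpha factor and 12.34 in mock. The differences of UtpA and UtpB subunits overlapped, and no test between them can be had from 2 arrays.

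The remaining UTP members had a median of -0.56 and spanned -1.003 (UTP30) to -0.44 (UTP7). UTP11 was at 10.99 with alpha factor and 11.71 in mock. UTP14, which activates the helicase that releases U3, was at 11.82 with alpha factor and 12.50 in mock, and that helicase, ECM16, had -0.79. UTP20, UTP23 and UTP25 had -0.56, -0.52 and -0.49.

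Small subunit factors with other names followed the same direction in 10 of 10 cases, with a median of -0.54. Next to RRP36, the helicase DBP8 was lowest, at 11.38 with alpha factor and 12.02 in mock. NOP14, a scaffold of the processome, was at 11.33 with alpha factor and 11.92 in mock, and its binding partner NOC4 was at 11.75 with alpha factor and 12.16 in mock. RRP5, a long RNA-binding protein used by both subunits, was at 12.52 with alpha factor and 13.10 in mock, and RRP12, an export factor, was at 12.51 with alpha factor and 13.05 in mock. NOP19 stood apart, with 10.04 with alpha factor and 10.19 in mock, a difference of -0.15.

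Genes for proteins of the small nucleolar particles had smaller differences, apart from RRP9 of the U3 particle. NOP1, the methyltransferase fibrillarin, was at 13.80 with alpha factor and 14.12 in mock. NOP56 was at 12.93 with alpha factor and 13.23 in mock, and NOP58 at 13.89 with alpha factor and 14.19 in mock. NOP10, of the pseudouridine-forming particles, was at 13.40 with alpha factor and 13.57 in mock. NOP1 and NOP58 gave the brightest signals of the members, though signal also depends on the probes. In mock they lay near the median of 14.41 for cytosolic ribosomal protein genes, where a difference can be compressed. The part of this in the smaller differences was not tested. Over the 71 members, read from the same 2 arrays, mock signal and difference had a Pearson r of -0.08 and a rank correlation (Spearman) of 0.20, where the mock value enters both measures. The sign of r rests on DBP1, without which r was 0.30. In the brightest 23 members the median difference was -0.43, and in the dimmest 24 it was -0.50.

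**Figure D2:**
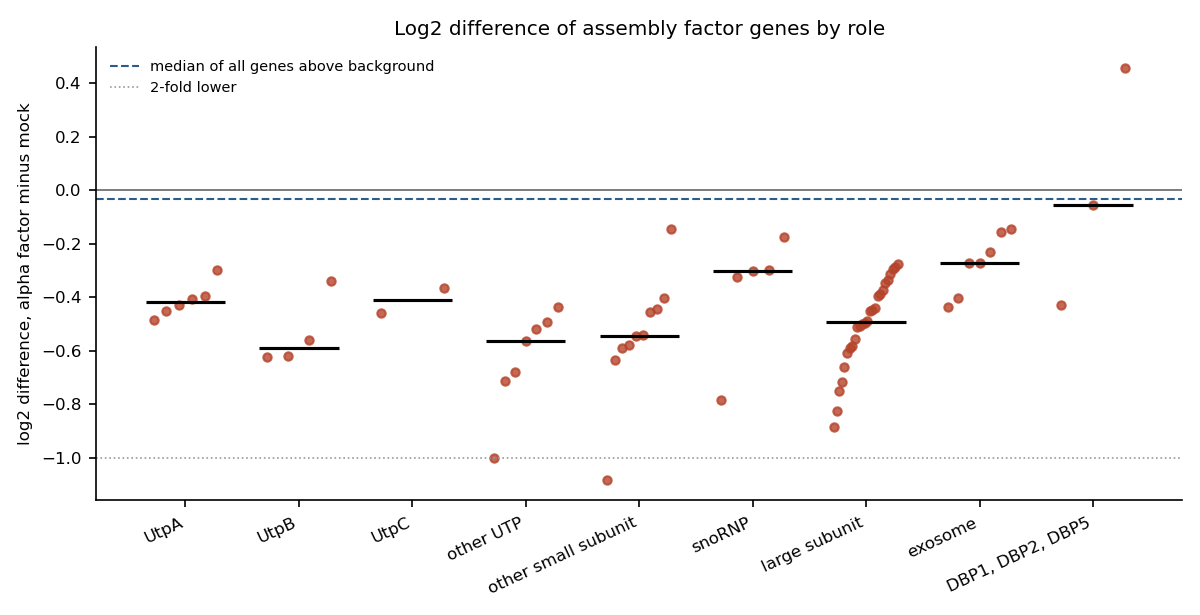
Log2 difference (alpha factor minus mock, vertical axis) of assembly factor genes by role, 1 point per gene, with the group median as a black bar, the median of all genes as a dashed line and the 2-fold rule as a dotted line. Medians of the small and large subunit groups lie between -0.59 and -0.41, those of the snoRNP and exosome groups at -0.30 and -0.27. NOP13, which was given no role, is not drawn.

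Large subunit factors were lower in 26 of 26 cases, with a median of -0.49 and a range from -0.89 (RRP14) to -0.28 (NSA2). RRP17, a nuclease that trims the precursor, was at 11.03 with alpha factor and 11.69 in mock. NOP8 was at 10.95 with alpha factor and 11.56 in mock, and RRP1 at 11.72 with alpha factor and 12.30 in mock. NOP2, a methyltransferase of 25S ribosomal RNA, was at 12.93 with alpha factor and 13.43 in mock. RRP8, another methyltransferase of that RNA, was at 11.21 with alpha factor and 11.61 in mock. RRP15, a factor of the large subunit precursor, had a difference of -0.29.

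The RLP members and RRB1 are tied to single ribosomal proteins. RLP24, a stand-in for ribosomal protein L24 during assembly, was at 12.95 with alpha factor and 13.34 in mock. RLP7, related to ribosomal protein L7, was at 12.83 with alpha factor and 13.14 in mock. RRB1, the chaperone of ribosomal protein L3, was at 13.13 with alpha factor and 13.50 in mock. Their differences were -0.39, -0.31 and -0.37, each smaller in size than the median of the members.

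Among the DEAD-box helicases with a DBP name, 8 of 9 were lower. The family had the widest spread of the name families, an SD of 0.34, but this includes DBP1, the exception. The 8 lower ones ran from -0.63 (DBP8) to -0.06 (DBP5), a narrower range than that of the RRP names (-1.08 to -0.15). DBP10, DBP7, DBP9, DBP3 and DBP6, which act on the large subunit, had -0.51, -0.51, -0.50, -0.45 and -0.30. HCA4, known earlier as DBP4 and outside the name rule, had -0.75. The helicases known mainly for other RNA work went separate ways. DBP2, which works on messenger RNA as well, was at 13.42 with alpha factor and 13.85 in mock. DBP5, the helicase of messenger RNA export, was at 12.69 with alpha factor and 12.74 in mock. DBP1, a relative of the translation initiation helicase Ded1, was at 8.78 with alpha factor and 8.32 in mock, the one member with a higher level, by 0.46. After removal of a loess curve DBP5 was at a difference of 0.02.

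Exosome subunits, which degrade and trim many RNAs besides ribosomal RNA, were lower in 7 of 7 cases, but all 7 differences were smaller in size than the median of the members. RRP45 was at 11.64 with alpha factor and 12.07 in mock, and RRP40 at 11.88 with alpha factor and 12.28 in mock. RRP6, the nuclear nuclease of the complex, was at 12.12 with alpha factor and 12.39 in mock. RRP42 and RRP4 had -0.27 and -0.23. RRP43 was at 11.79 with alpha factor and 11.95 in mock, and RRP46 at 11.53 with alpha factor and 11.68 in mock, the smallest differences of the complex. With further subunits and partners that carry other names (DIS3, SKI6, MTR3, CSL4 and LRP1), 12 of 12 were lower, with a median of -0.28. LRP1, a nuclear partner of RRP6, was the lowest of the 12 at -0.71. The helicase MTR4, another partner of the exosome but not among the 12, had -0.75.

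Names were also set against each other as early and late steps, though they stand for the small and the large subunit more than for time. The 18 UTP members had a median of -0.49, and the 6 NOC, NSA and NUG members one of -0.37, a gap of -0.11. Of the late group, the large subunit factor NSA1 was lowest, at 11.70 with alpha factor and 12.29 in mock. NOC2, which passes from one NOC partner to the next as the large subunit precursor leaves the nucleolus, was at 11.82 with alpha factor and 12.31 in mock, and its later partner NOC3 was at 12.002 with alpha factor and 12.34 in mock. The GTPase gene NUG1 was at 12.98 with alpha factor and 13.33 in mock, and NSA2 at 12.71 with alpha factor and 12.99 in mock.

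The early and late groups overlapped. Of the 6 late members, 5 lay within the range of the UTP members, and 5 of the 18 UTP members were lower than NSA1. Genes are not replicates, so the gap has no test. NOC4 acts in the small subunit processome despite its name, and with it moved to the early group the gap was -0.14. With all 26 large subunit factors as the late group the gap was 0.0028, a turned sign. In the same way, the 29 small subunit members and the 26 large subunit members both had a median of -0.49. Thus 13 of the 26 large subunit factors were lower than the small subunit median.

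**Figure D3:**
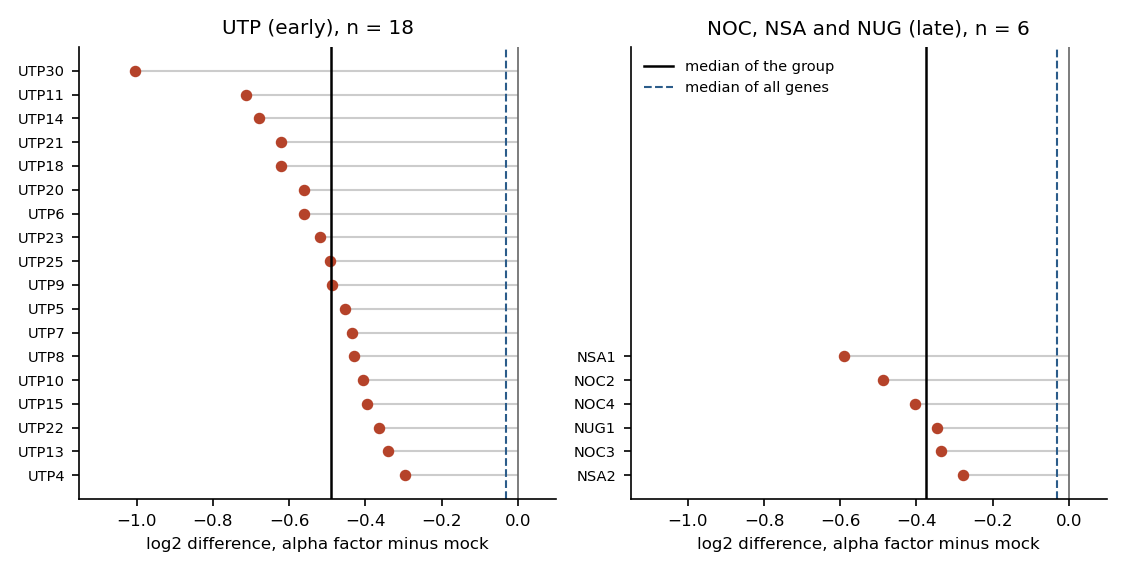
Log2 difference (alpha factor minus mock, horizontal axis) of the 18 UTP members (left) and the 6 NOC, NSA and NUG members (right), with the median of each group as a black line and that of all genes as a dashed blue line. The medians are -0.49 and -0.37, and the ranges overlap.

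Genes just outside the name rule had values like those inside it. A further 17 genes carry a name of this kind only as an older name, and all 17 were lower, beside 53.9% of all genes. Their median was -0.49, with a range from -0.81 (RIO1, once RRP10) to -0.06 (PIH1, once NOP17). MAK21, once NOC1, was at 12.05 with alpha factor and 12.72 in mock. CIC1, once NSA3, was at 12.60 with alpha factor and 13.16 in mock, and NOG2, once NUG2, at 13.14 with alpha factor and 13.35 in mock. With older names counted, 24 early and 9 late genes had medians of -0.49 and -0.40. These genes were examined after the values of the members were known.

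A list of 84 other ribosome assembly genes had a similar profile: 83 were lower, against 53.9% of all genes, with a median of -0.51. By 1.5-fold or more 27 were lower (32.1%), beside 10.7% of all genes. Only 1 was lower by 2-fold or more, beside 3.78% of all genes. That gene, FAF1, a small subunit factor, was at 9.64 with alpha factor and 11.05 in mock. ALB1, a shuttling factor of the large subunit, had -0.88, and the helicase DHR2 had -0.85. The list and the members share no gene, but 13 of the 17 genes with older names are in it. Of 15 genes of RNA polymerase I and its factors, 14 were lower, beside 53.9% of all genes, with a median of -0.37. By 2-fold 0 of them were lower, where 3.78% of all genes were. RRN3, the initiation factor that couples the polymerase to growth, was at 11.12 with alpha factor and 11.94 in mock. RRN6 and RPA43 had -0.73 and -0.59, and RRN11 went the other way at 11.98 with alpha factor and 11.47 in mock.

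A list of regulators of ribosome production, which also holds factors of ribosomal protein genes and RRN3, was read as well. Of 14, 11 were lower, beside 53.9% of all genes, and the median was -0.29. RAP1, a general factor of ribosomal protein promoters, was at 10.45 with alpha factor and 11.42 in mock, and FHL1, which acts at the same promoters, was at 9.50 with alpha factor and 10.02 in mock. The activators SFP1 and SCH9 had 0.08 and -0.04, and the repressors of assembly genes TOD6, DOT6 and STB3 had -0.26, -0.05 and 0.17. Of the rest, IFH1, TOR1, TOR2 and HMO1 had -0.34, -0.32, -0.32 and -0.17, and KOG1 had 0.11. CRF1, which lay near background, had -0.49. Transcript levels of these regulators do not measure their activity.

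Genes of cytosolic ribosomal proteins, the parts that the assembly factors put together, were divided evenly around 0. Of 127, 68 were lower (53.5%), near the 53.9% of all genes, and the median was -0.0020. By 1.5-fold or more 0 were lower, where 10.7% of all genes were. RPS26B had the lowest difference at -0.26, and RPL9B the highest at 0.25. Their median level was 14.42 with alpha factor and 14.41 in mock, near the highest value of 15.19 in the table, where a difference can be compressed. In the members' band of mock levels only 8 ribosomal protein genes were found, and their median was 0.08. Many ribosomal protein genes have a near-identical copy, so the value of a single one is uncertain. Of 43 mitochondrial ribosomal protein genes, which belong to another ribosome, 34 were lower, beside 53.9% of all genes. Their median was -0.18, with MRPS5 lowest at -0.66.

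**Figure D4:**
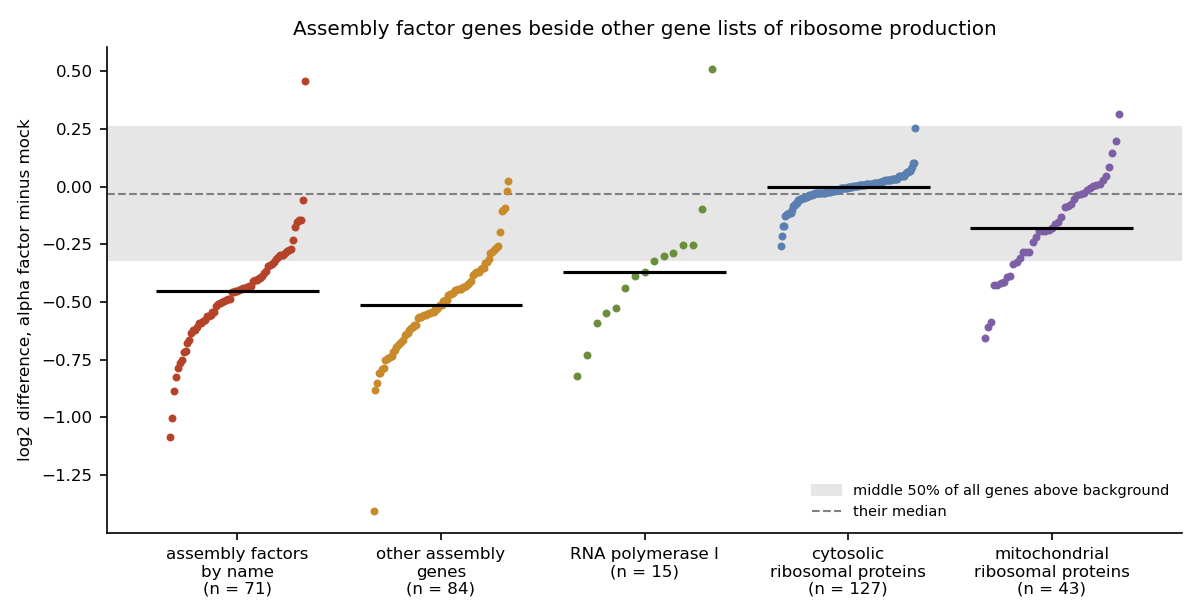
Log2 difference (alpha factor minus mock, vertical axis) of 5 gene lists, 1 point per gene sorted by value, with list medians as black bars and the middle 50% of all genes above background shaded. Medians are -0.45 for the assembly factors by name, -0.51 for other assembly genes, -0.37 for RNA polymerase I, -0.0020 for cytosolic and -0.18 for mitochondrial ribosomal proteins.

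The level of the signal was examined as something the members share. Only 16.7% of all genes were brighter in mock than the median member. Among all 1524 genes in the members' band, 63.5% had a difference below 0 and the median was -0.12, in the same direction as the members. The band was chosen on the mock value, which also enters the difference, and the part of that choice in this shift was not tested. Without the members the band held 1461 genes with a median of -0.11, and 11.3% of these were lower by 1.5-fold or more. Removal of a loess curve, which takes out a trend with the mean level of both arrays, left a median of -0.37 for the members. After it, 69 of 71 were below 0 and 10 were past 1.5-fold.

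**Figure D5:**
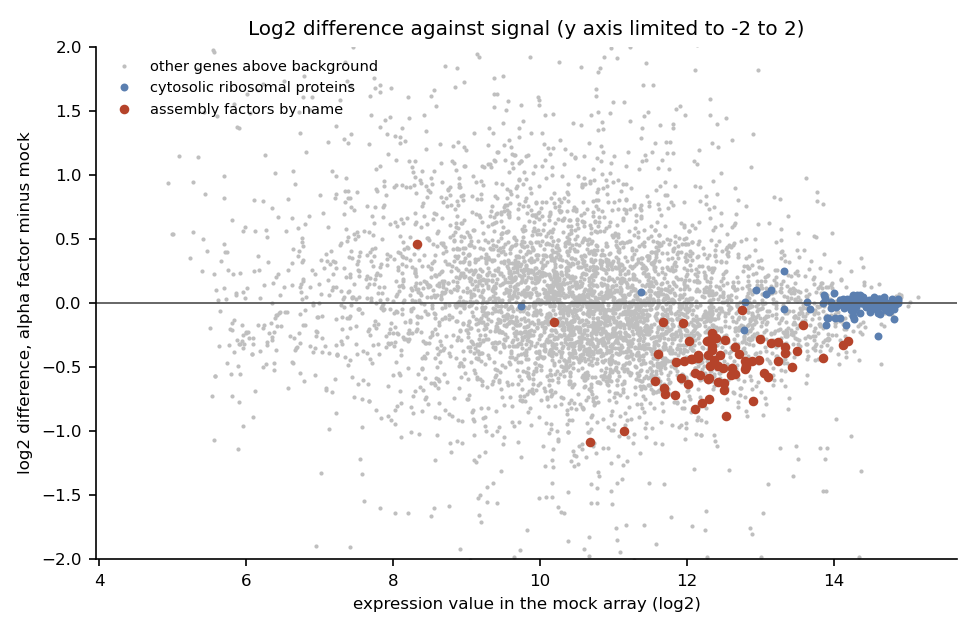
Log2 difference (alpha factor minus mock, vertical axis, limited to -2 to 2) against the expression value in the mock array (log2), 1 point per gene. Assembly factors (red) form a band below 0 around a mock value of 12.39, and cytosolic ribosomal proteins (blue) lie near 0 at about 14.41.

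Other shared properties showed little. Gene length in the reference table correlated with the difference at a Pearson r of -0.08 (Spearman rho -0.12) over the 71 members, which share the 2 arrays. By the order of genes in the reference table, RRP15 and NOC4 are the one neighbouring pair of members, with -0.29 and -0.40. Next to other assembly genes stood NSA2 (beside LCP5), RRP3 (beside SSF1), DBP8 (beside NMD3) and UTP9 (beside RIX1). Their pairs had -0.28 and -0.56, -0.54 and -0.61, -0.63 and -0.56, and -0.49 and -0.73. The array also carries 25 S. pombe probe sets with names of the same kind. None of them was above background, with levels from 3.69 to 5.19 with alpha factor and 3.77 to 5.10 in mock and a median difference of -0.03.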

How the data were processed

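Biotin-labelled total RNA of each culture was read on an Affymetrix Yeast 2.0 array, per the labels' protocols. The deposited table holds 10928 probe sets, and its values were taken as log2 expression values from their range of 3.32 to 15.19. They were made by the authors with Bioconductor's affy, per the submitters' processing notes, and no source used here gives its version, background correction or normalization. The sorted columns differed by at most 0.092, so the arrays may have been scaled to each other.

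Probe sets were named through the platform annotation and gene IDs of the RefSeq table (assembly R64), and the probe sets of a gene were averaged. S. pombe probe sets (1746) were those with another gene ID. Background was their 95th percentile on each array. A gene was counted when above it in at least 1 array and 2-fold or 1.5-fold lower or higher. No test between conditions was possible.

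The members and gene lists were chosen with earlier results of these data known. Role lists, other lists and most alternatives were written down first, and older symbols were updated. Any member could be named; of other lists, mainly the 3 with the largest differences, with complex partners, regulators, neighbours and older names added after their values were seen. Sequences were not used here. The calling was tried on simulated data for the 2-fold count over 5449 genes. There, 200 of 200 genes changed by a log2 value of at least 1.5 were found, and 0 of 5125 unchanged genes were called. The simulated noise had the spread of the S. pombe differences, an SD of 0.186, so this outcome was largely fixed by the settings. It checks that the code runs as written, and does not cover differences near 2-fold or differences between cultures. Tools were matplotlib 3.10.9, statsmodels 0.14.6, scipy 1.17.1, pandas 2.3.3, numpy 2.4.6 and Python 3.11.15.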

Additional observations from a re-analysis of the deposited data

Results flagged for a closer look

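Signal in control probe sets outside the comparison differed between the arrays. The 9 probe sets for the bacterial lys control transcript had a median of 12.27 in the alpha-factor array and 4.36 in the mock array. The 9 for the dap control transcript ran the other way, with medians of 4.16 in the alpha-factor array and 14.02 in the mock array. No label used here names a batch or the control transcripts added, and the part of this difference in the values of the assembly factors was not tested.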

How the results depend on the processing

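The members' median stayed below 0 under each alternative run, between -0.49 and -0.37, and 69 to 70 members were below 0. The count past 2-fold was 1 after centring on the S. cerevisiae median, quantile normalization, removal of a loess curve or a pseudocount of 32, and 2 otherwise. The count past 1.5-fold was 10 after removal of the loess curve, and 18 at most. The early minus late gap lay between -0.14 and -0.087 except with all large subunit factors as late, where it was 0.0028. That alternative replaces the 6 late genes by 26. The small minus large subunit gap lay between -0.051 and 0.0038. Of the alternatives, the counting of older names was chosen after seeing the data. For medians, a shift was called a move when it passed 0.186, the SD of the S. pombe differences. Counts were called moved when they changed by a ratio above 1.5. No paired analysis was possible because each group holds 1 array. Signal near the top of the scale limits what can be seen for ribosomal protein genes, and differences between cultures cannot be separated from the treatment.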
